A study of Mus musculus with 9 samples.

Results

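ATP-binding cassette (ABC) transporters are membrane pumps that bind and hydrolyse ATP to move lipids, sterols, peptides, drugs and conjugated metabolites across membranes. Their mRNA levels were compared between stem cell-enriched and myeloid progenitor cells of mouse bone marrow. They were also compared between myeloid progenitors of control mice and of nicastrin knockout mice. The members were all genes with a symbol of Abc, a subfamily letter from a to g and a number, measured by at least 1 probe set that carries no other gene's symbol. This gave 45 genes of 18193 measured, read by 92 probe sets of 45101 on the array. Where a gene had several probe sets, the one with the highest mean over the 9 arrays was used, and 26 of the 45 genes had more than 1. The members comprised 14 genes of subfamily A, 8 of B, 10 of C, 3 of D, 1 of E, 3 of F and 6 of G.

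Nicastrin, encoded by Ncstn, is a subunit of the gamma-secretase complex that cleaves Notch receptors and other membrane proteins. The 3 groups held 3 arrays each, all from 6-week-old mice that had received 3 injections of polyIC (20 micrograms per gram of body weight) from 14 days of age, 4 weeks before the cells were taken. LSK WT cells were lineage-negative, cKit+ and Sca1+ cells of Ncstn flox/flox mice, a gate that holds stem cells and multipotent progenitors. GMP WT cells were granulocyte-monocyte progenitors of Ncstn flox/flox mice, sorted as lineage-negative, cKit+, Sca1-, CD34+ and FcγRII/III+. GMP NcstnKO cells passed the same gate in Ncstn flox/flox Mx1-cre+ mice, in which the interferon-inducible Mx1 promoter drives Cre recombinase. Only these mice carried Cre, so loss of nicastrin and presence of Cre cannot be told apart, and LSK cells of this genotype were not analysed here. The labels do not state whether each array held the cells of 1 mouse, so the spread between arrays may be partly technical.

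Ncstn read 9.25, 9.31 and 9.26 (log2 intensity) in GMP WT and 7.79, 7.78 and 7.76 in GMP NcstnKO, a fall of 2.82-fold (log2 difference -1.50, SE 0.08, limma adjusted p = 0.000287). Its signal on the GMP NcstnKO arrays thus stayed above the background limit given below. The sex given in the labels went against sex-specific transcripts on 4 arrays, replicates 2 and 3 of both GMP groups, and by these transcripts 1 of 3 arrays was female in LSK WT, 1 of 3 in GMP WT and 3 of 3 in GMP NcstnKO. Sex is thus unbalanced between the GMP groups, and the male arrays of that comparison are all GMP WT. Of 10 markers of the GMP gate, 8 were higher and 2 lower in GMP WT than in LSK WT, and all 9 markers of the LSK gate were lower (after centring, 8 higher and 0 lower, and 7 lower). Median intensity per array was 98.3 to 103 in LSK WT and 65.4 to 68.6 on the 6 GMP arrays, and the median gene differed by -0.18 (log2, GMP WT minus LSK WT). After quantile normalization that median was 0.05, and after centring each array on its 75th percentile it was 0.17, so small differences between LSK and GMP depend on the scale.

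ABC genes encode proteins with different tasks. ABCA1 and ABCG1 export cholesterol and phospholipid from the cell to lipoproteins, ABCB1 and ABCG2 expel drugs and dyes and are known as markers of the dye-excluding side population of bone marrow, and the ABCC proteins carry organic anions such as glutathione conjugates. ABCD proteins serve peroxisomes and lysosomes, whereas ABCE1 and the ABCF proteins have no membrane part and act in translation. In sterol-loaded cells, Abca1 and Abcg1 are classical targets of the nuclear receptors LXR and RXR.

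The promoters of 3 of the 4 members that were lower in GMP NcstnKO than in GMP WT are shown because these genes moved in the same direction in both comparisons. The fourth, Abcg1, was not among the 35 members with a promoter in the RefSeq table used. Each line gives the 250 bases before the annotated start in RefSeq's GRCm38.p6 annotation, on the gene's strand, with motif matches in capitals.
Abca1, chr4:53159896-53160145, minus strand: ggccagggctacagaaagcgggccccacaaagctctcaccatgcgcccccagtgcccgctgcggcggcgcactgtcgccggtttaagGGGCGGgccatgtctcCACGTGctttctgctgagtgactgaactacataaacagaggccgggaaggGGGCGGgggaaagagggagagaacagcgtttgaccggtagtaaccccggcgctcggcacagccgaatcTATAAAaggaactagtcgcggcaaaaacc
Abca3, chr17:24351773-24352022, plus strand: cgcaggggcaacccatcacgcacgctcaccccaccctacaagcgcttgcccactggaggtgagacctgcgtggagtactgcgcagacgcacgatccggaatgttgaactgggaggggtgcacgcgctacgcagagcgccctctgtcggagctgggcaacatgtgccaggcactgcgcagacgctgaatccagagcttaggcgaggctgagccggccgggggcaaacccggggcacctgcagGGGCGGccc
Abcb4, chr5:8893471-8893720, plus strand: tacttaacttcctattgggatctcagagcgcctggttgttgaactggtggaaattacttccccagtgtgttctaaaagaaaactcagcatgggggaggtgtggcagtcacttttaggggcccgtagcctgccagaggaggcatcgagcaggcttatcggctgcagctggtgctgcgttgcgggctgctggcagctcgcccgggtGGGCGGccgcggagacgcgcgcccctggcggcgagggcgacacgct

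Motifs were searched on both strands. The letters GGGCGG, the core of the GC box bound by Sp1, lay in all 3 windows, starting 163 and 97 bases before the start of Abca1, 9 before that of Abca3 and 46 before that of Abcb4. They also lay in 20 of the 42 promoter windows of members and in 32.7% of all 32851 promoter windows of this length. Abca1 alone among the 3 held CACGTG, the E-box bound by USF and Myc proteins, 147 bases before its start, and TATAAA 29 bases before it. These occurred in 6.02% and 12.4% of all promoters. AGATAA and TGATAA, forms of the GATA factor site, and AGGTCA, the half-site of nuclear receptors, were in none of these 3 windows. They were in 9.99%, 7.94% and 14% of all promoters. Only these exact letters were searched, so the windows may hold variant forms of either site.

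A level was taken as above background where it exceeded the 95th percentile of 27 unspiked bacterial control probe sets on the same array, a limit of 4.3 to 4.57 (log2). By this measure 31 of 45 members were above background on all 9 arrays, 5 on some and 9 on none. The 9 were Abca6, Abca8a, Abca12, Abca14, Abca16, Abcb11, Abcc6, Abcc9 and Abcg5. They include the bile salt pump of liver (Abcb11), a keratinocyte lipid transporter (Abca12) and one partner of the intestinal sterol exporter (Abcg5). Above background on all 3 arrays of a group were 33 members in LSK WT, 34 in GMP WT and 33 in GMP NcstnKO. Member means over the 9 arrays ran from 2.62 to 12.78, but probe sets differ in response, so these values do not rank the genes by abundance.

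**Figure D1:**
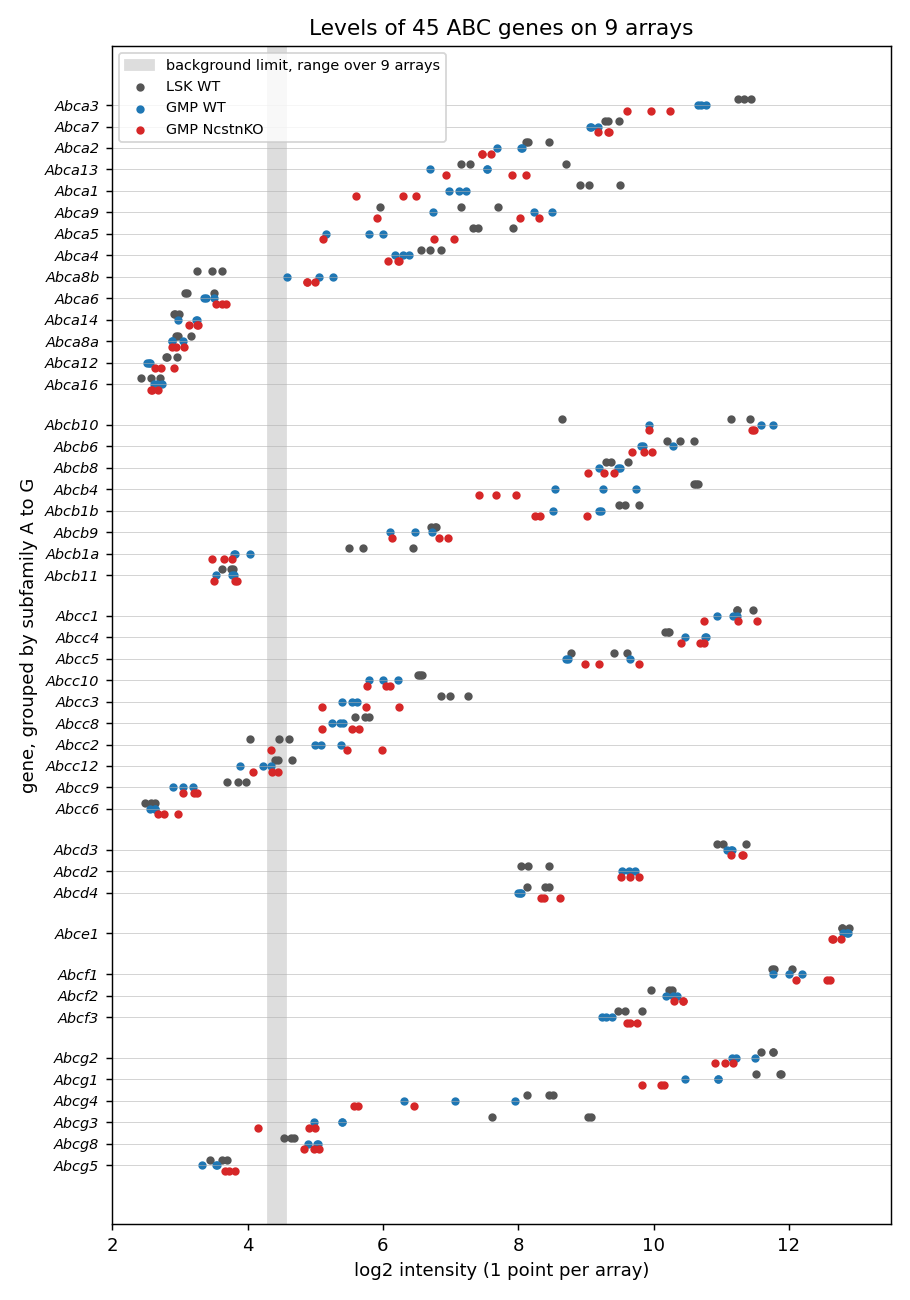
Log2 intensity (horizontal axis) of the 45 ABC genes by subfamily, 1 point per array, for LSK WT, GMP WT and GMP NcstnKO; the grey band is the range of the background limit over the 9 arrays, 4.3 to 4.57. A reader should see that 9 genes lie at or below the limit on all arrays, that Abcg3, Abca1 and Abcb1a separate LSK from GMP, and that Abcb10 scatters within each group.

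Within groups, the median SD of a member was 0.166 in LSK WT, 0.158 in GMP WT and 0.177 in GMP NcstnKO, against 0.145, 0.123 and 0.151 over all genes. The widest scatter was in Abcb10, a transporter of the inner mitochondrial membrane linked to heme synthesis. It read 11.15, 8.64 and 11.42 in LSK WT, 11.76, 9.93 and 11.58 in GMP WT, and 9.93, 11.48 and 11.46 in GMP NcstnKO. One array of each group was low, and the same arrays were the lowest of their groups on a second probe set. That probe set read 7.70, 6.97 and 7.85 in LSK WT and 8.16, 7.22 and 8.23 in GMP WT. In GMP NcstnKO it read 7.35, 8.02 and 7.93. Abca9, a relative of ABCA1 with no settled substrate, spanned 2.39 within GMP NcstnKO, with 8.30, 8.02 and 5.91. The SE of a difference between groups was 0.8 for Abcb10 and 0.73 for Abca9, against 0.08 for Abce1, so only large differences of the former pair could pass the test.

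Between LSK WT and GMP WT, 16 of 45 members were lower in GMP (35.6%), 4 were higher (8.89%) and 25 were not called by limma at an adjusted p under 0.05. Over all genes, 30.5% were lower and 7.48% higher in this comparison, 38% in either direction, so the family's shares lie near the background. The median member differed by -0.31 and the median of all genes by -0.18. The members that fell include the sterol exporters Abca1 and Abcg1, the phospholipid transporters Abca3 and Abcb4, and the drug pumps Abcb1a and Abcg2. Those that rose were Abcd2, Abca8b, Abcc4 and Abcg8. In the same bulk samples, fewer cells of a type and less RNA per cell cannot be told apart.

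The scale of the arrays matters for this split. After quantile normalization 8 members were lower and 7 higher, and after centring 8 were lower and 14 higher. Of all 18193 genes, 6404 and 8558 were called in either direction under these rescalings. The higher members then included genes above background on no array. These were Abca6 and Abca14 under both rescalings, and Abca16, Abcb11 and Abcc6 after centring. All 4 rises, but only 7 of the 16 falls, were called also after quantile normalization, centring and as deposited. The 7 were Abca1, Abcb1a, Abcb4, Abcc3, Abcc9, Abcg1 and Abcg3. Another 5 changed sign under a scaling (Abca4, Abca7, Abca12, Abcc10 and Abcf3), and 4 kept their sign but lost the call under at least 1 scaling (Abca3, Abca5, Abcg2 and Abcg4).

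**Figure D2:**
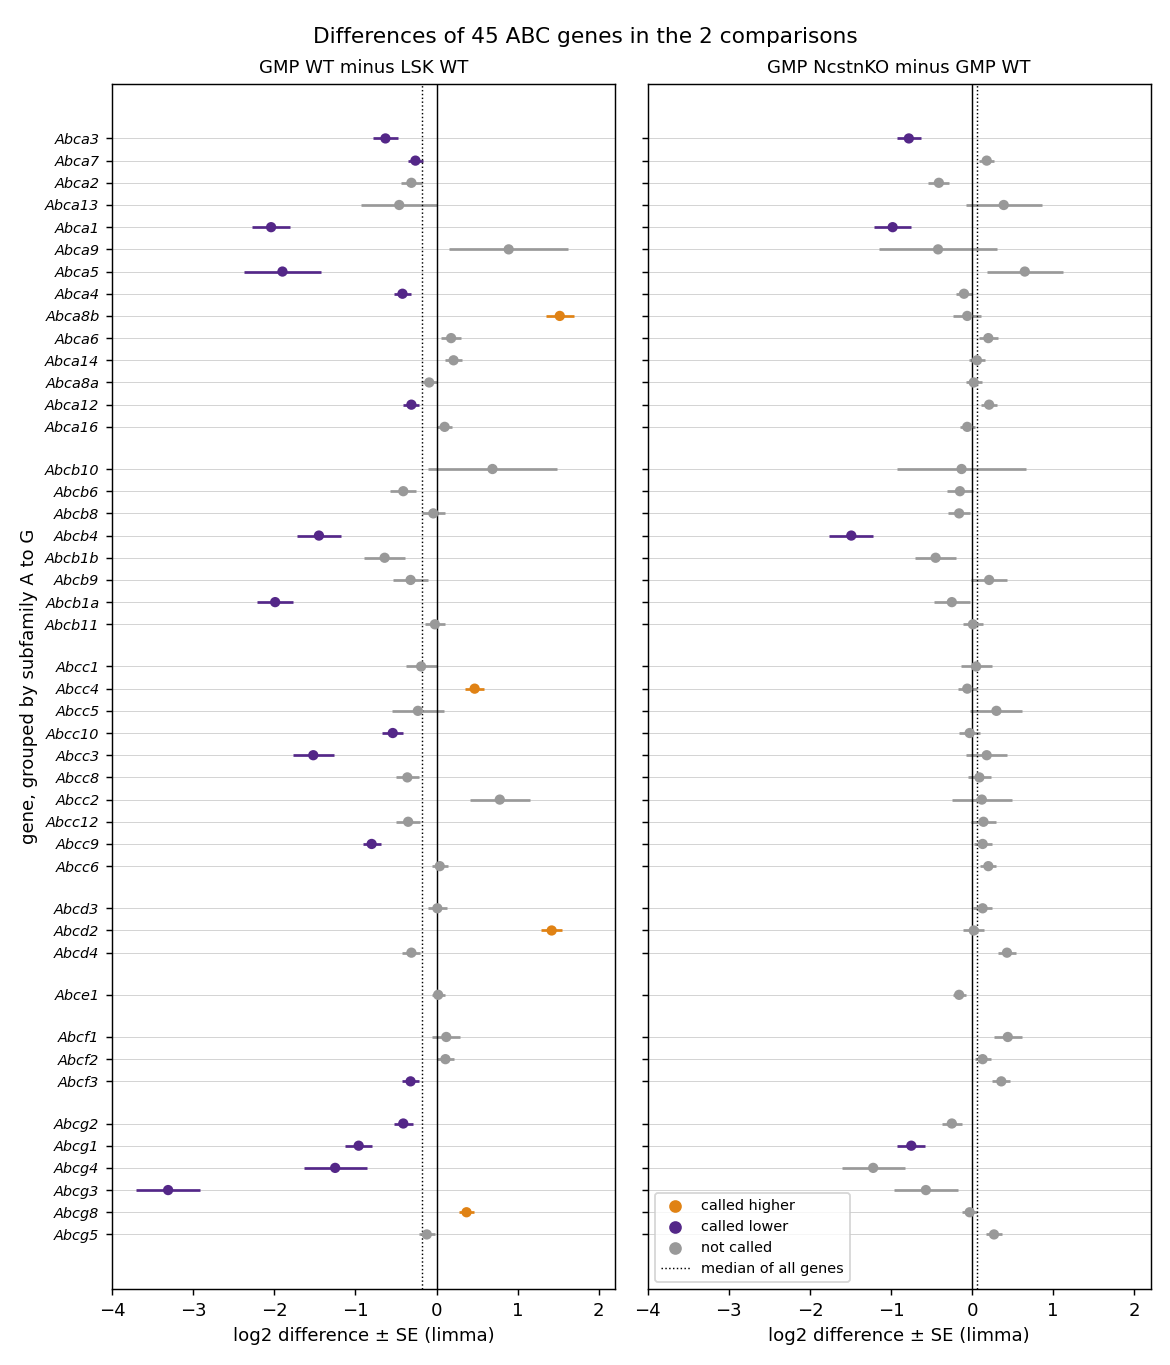
Log2 differences with SE of the 45 ABC genes for GMP WT minus LSK WT (left) and GMP NcstnKO minus GMP WT (right), by subfamily; coloured points passed the limma threshold and the dotted line is the median of all genes, -0.18 and 0.06. A reader should see 16 lower and 4 higher members on the left, and 4 lower and 0 higher on the right.

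Among the sterol exporters, Abca1, which loads cholesterol and phospholipid onto apolipoprotein A-I, read 9.50, 8.91 and 9.04 in LSK WT and 6.97, 7.23 and 7.12 in GMP WT. The groups stood 1.67 apart at their nearest arrays, and the level was 4.11-fold lower in GMP (log2 difference -2.04, SE 0.23, limma adjusted p = 0.000324). Abcg1, which passes sterol on to high-density lipoprotein, read 11.86, 11.51 and 11.88 in LSK WT and 10.47, 10.95 and 10.95 in GMP WT. It was 1.95-fold lower (-0.96, SE 0.17, limma adjusted p = 0.00251), with no overlap. A second probe set of Abcg1 differed by -1.95 in the same direction.

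Abcg4, a close relative of Abcg1 that also exports sterol, read 8.13, 8.45 and 8.51 in LSK WT and 7.95, 6.31 and 7.06 in GMP WT. It was 2.39-fold lower (-1.25, SE 0.39, limma adjusted p = 0.0337), but the highest GMP array lay close to the lowest LSK array and the call was lost under both rescalings. By their names, the probe set used and the gene's other probe set may both also read related transcripts. The other probe set differed by -0.15 and was not called, but it lay just above background, with group means of 4.84 and 4.69. Abcg8, the partner of ABCG5 in sterol export by gut and liver, read 4.68, 4.54 and 4.64 in LSK WT and 5.03, 5.04 and 4.89 in GMP WT, a rise of 1.29-fold (0.37, SE 0.09, limma adjusted p = 0.0145) just above background. Abcg5 was at background on all arrays.

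Of the phospholipid transporters, Abcb4, which moves phosphatidylcholine to the outer leaflet and secretes it into bile, was tight in LSK WT at 10.59, 10.63 and 10.66. In GMP WT it was spread, at 9.74, 8.55 and 9.25, and every array lay below LSK WT (2.73-fold lower, -1.45, SE 0.27, limma adjusted p = 0.00349). Abca3, which fills the lamellar bodies of lung with surfactant lipid, read 11.34, 11.44 and 11.24 in LSK WT and 10.78, 10.70 and 10.66 in GMP WT. It was 1.54-fold lower (-0.63, SE 0.15, limma adjusted p = 0.0115), and its other probe sets differed by -0.67 and -0.79. After centring the call on Abca3 was lost. Abca7, a relative of ABCA1 with roles in lipid handling and phagocytosis, read 9.33, 9.49 and 9.28 in LSK WT and 9.08, 9.06 and 9.18 in GMP WT. Its difference of -0.26 (SE 0.09, limma adjusted p = 0.0477) turned to 0.10 after quantile normalization and 0.08 after centring, so no direction can be given. Abca4, the retinoid-lipid transporter of photoreceptors, read 6.57, 6.86 and 6.70 against 6.39, 6.29 and 6.18, and its difference of -0.42 turned to 0.14 after quantile normalization.

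Abca5, an endosomal and lysosomal member, read 7.92, 7.33 and 7.41 in LSK WT and 5.16, 6.00 and 5.79 in GMP WT. The groups stood well apart (3.74-fold lower, -1.90, SE 0.47, limma adjusted p = 0.0129), and its second probe set differed by -1.58. Quantile normalization ended the call on Abca5. Abca8b, a sterol and lipid transporter of the same branch as Abca9, was at background in LSK WT at 3.26, 3.47 and 3.62 and above it in GMP WT at 4.59, 5.06 and 5.27. It was therefore at least 1.48-fold higher in GMP, counting LSK WT at the lowest level above background (limma adjusted p = 0.000287). Abca2, Abca9 and Abca13 were not called. The other probe set of Abca9, above background on all 9 arrays, was however called higher in GMP WT (1.48, SE 0.31, limma adjusted p = 0.00723).

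Of the drug pumps, Abcb1a, which encodes one of the mouse P-glycoproteins, was measured at 6.45, 5.70 and 5.50 in LSK WT and was at background in GMP WT, at 3.82, 4.04 and 3.80. It was at least 2.93-fold lower in GMP (limma adjusted p = 0.000287), and a second probe set differed by -1.88. Abcb1b, the other mouse P-glycoprotein gene, had group means of 9.62 and 8.97 (-0.64, SE 0.25) and was not called (limma adjusted p = 0.0693). Abcg2, the breast cancer resistance protein that effluxes Hoechst dye from side population cells, read 11.77, 11.59 and 11.76 in LSK WT and 11.50, 11.22 and 11.16 in GMP WT. It was 1.33-fold lower (-0.41, SE 0.12, limma adjusted p = 0.0239), a difference that lost its call under both rescalings.

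Abcg3, a rodent relative of Abcg2 whose substrate is not known, showed the largest difference among the called members. It read 9.03, 9.07 and 7.61 in LSK WT and 4.98, 5.40 and 5.40 in GMP WT. It was 9.92-fold lower in GMP (-3.31, SE 0.39, limma adjusted p = 0.000383), and its second probe set differed by -2.35. The third LSK array was lower than the other two and still far above every GMP array.

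**Figure D3:**
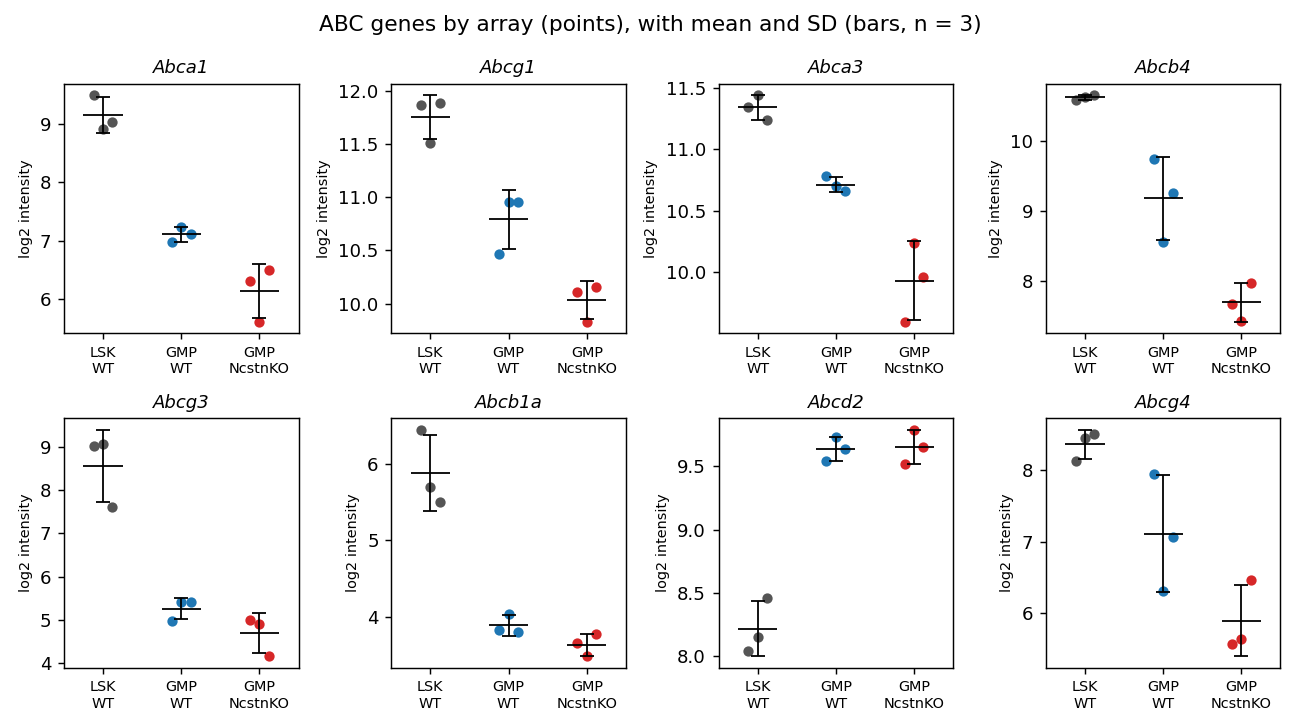
Log2 intensity (vertical axis, own scale in each panel, not starting at 0) of 8 ABC genes on each array of LSK WT, GMP WT and GMP NcstnKO; points are arrays and bars are the mean and SD, n = 3. A reader should see Abca1, Abcg1, Abca3 and Abcb4 stepping down from LSK WT to GMP WT to GMP NcstnKO with no overlap, Abcd2 higher in both GMP groups, and the wide spread of Abcg4 in GMP WT.

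Of the ABCC proteins, Abcc3, a carrier of bile acids and glucuronides, read 7.26, 6.99 and 6.86 in LSK WT and 5.39, 5.54 and 5.62 in GMP WT. It was 2.87-fold lower (-1.52, SE 0.25, limma adjusted p = 0.00198), with each group tight. Abcc4, which exports cyclic nucleotides and prostaglandins, moved the other way, from 10.22, 10.21 and 10.17 to 10.76, 10.47 and 10.78. It was 1.38-fold higher (0.47, SE 0.12, limma adjusted p = 0.016), and without GMP WT array 1 or 3 the adjusted p was 0.056 or 0.058. Abcc1, the exporter of leukotriene C4 and glutathione conjugates, read 11.23, 11.47 and 11.23 in LSK WT and 11.18, 11.23 and 10.94 in GMP WT and was not called. Its other probe set, which may also read related transcripts by its name, was called lower (-0.54, SE 0.16, limma adjusted p = 0.0306). Abcc10, a broad drug exporter, read 6.55, 6.58 and 6.52 against 6.00, 5.80 and 6.23, and its difference of -0.54 (SE 0.13, limma adjusted p = 0.0121) was 0.01 after quantile normalization. Abcc9, the sulfonylurea receptor of vascular and heart KATP channels, was called lower, but no array of either group was above background and no fold is given. The same holds for Abca12.

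Among the peroxisomal half-transporters, Abcd2, which imports very long-chain fatty acids, rose 2.68-fold, with 8.04, 8.15 and 8.46 in LSK WT and 9.54, 9.73 and 9.64 in GMP WT (1.42, SE 0.13, limma adjusted p = 0.000119). The nearest arrays of the groups stood 1.07 apart, and 2 of its other probe sets were called higher by 1.72 and 1.29. Abcd3, which imports branched and long-chain fatty acids, read 11.03, 11.36 and 10.94 in LSK WT and 11.08, 11.16 and 11.14 in GMP WT, a difference of 0.01. Abcd4, a lysosomal partner in cobalamin release, had a difference of -0.31 and was not called. Its second probe set was called lower (-0.56, SE 0.13, limma adjusted p = 0.0101). On the deposited scale 1 of the 3 members of subfamily D was thus called higher.

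Of the mitochondrial and translation-linked members, 1 was called on the deposited scale. Abcb6, linked to porphyrin transport, read 10.20, 10.60 and 10.39 against 10.29, 9.85 and 9.81 and was not called (limma adjusted p = 0.068). Abcb8, another mitochondrial member, had a difference of -0.04. Abce1, which splits ribosomes after termination, read 12.79, 12.79 and 12.88 in LSK WT and 12.80, 12.86 and 12.87 in GMP WT, a difference of 0.02 (SE 0.08). Abcf1, which binds the initiation factor eIF2, read 11.75, 12.05 and 11.78 against 11.76 to 12.19 in GMP WT, and Abcf2 had means of 10.15 and 10.27. Neither was called. After centring, Abce1 (0.37), Abcf1 (0.47), Abcf2 (0.46) and the peroxisomal Abcd3 (0.36) were called higher in GMP WT, and after quantile normalization Abcf2 (0.35) was, so a rise of these members depends on the scale. Abcf3, which counters virus infection and acts with the translation machinery, read 9.47, 9.83 and 9.57 against 9.38, 9.30 and 9.24, and its difference of -0.32 (limma adjusted p = 0.0435) turned to 0.01 after quantile normalization and 0.03 after centring.

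By subfamily, the called members of the comparison were 6 lower and 1 higher of 14 in A, 2 lower of 8 in B, 3 lower and 1 higher of 10 in C, 1 higher of 3 in D, 0 of 1 in E, 1 lower of 3 in F, and 4 lower and 1 higher of 6 in G. Subfamily medians were -0.29 for A, -0.37 for B, -0.29 for C, 0.01 for D and -0.69 for G. In all, 26 members had groups that did not overlap, 21 lower and 5 higher in GMP WT, against 54.6% of all genes. Leaving out any 1 array kept the call for 13 of the 20 members. The other 7 kept their direction. Abca7 lost the call without any 1 of the 6 WT arrays or GMP NcstnKO array 1 or 2 (limma adjusted p 0.0518 to 0.132), and Abca12 without any 1 of the 6 WT arrays (0.0503 to 0.0989). Abcf3 lost it without LSK array 2 or 3, any GMP WT array, or GMP NcstnKO array 1 or 2 (0.0531 to 0.124). Abcg2 lost it without LSK array 1 or 3 or GMP WT array 2 or 3 (0.066 to 0.0829), and Abcg4 without any LSK array or GMP WT array 2 or 3 (0.055 to 0.0921). Abcc4 lost it as given above, and Abcg8 without GMP WT array 2 (0.0516).

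Markers of other cells differed between LSK WT and GMP WT as well. In GMP WT, 10 of 12 lymphocyte markers, 12 of 13 late neutrophil markers, 9 of 12 megakaryocyte markers and 6 of 15 erythroid markers were lower, and 10 of 11 mast cell, basophil and eosinophil markers were higher. After quantile normalization these counts were 7, 11, 6, 4 and 10, and after centring 7, 9, 5, 3 and 10. Over all genes, 30.5% were lower and 7.48% higher on the deposited scale. On that scale macrophage markers were mixed, 2 higher and 2 lower of 12. Of 8 dendritic cell markers 4 were lower, and of 9 stromal markers 5 were lower and 1 higher. The part of these cells in the differences of the ABC genes was not tested.

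Between GMP WT and GMP NcstnKO, 4 of 45 members were lower in GMP NcstnKO (8.89%), 0 were higher and 41 were not called by limma, against 3.26% lower and 2.44% higher, 5.7% in all, over all genes. The 4 were Abca1, Abcg1, Abca3 and Abcb4. At an unadjusted p under 0.05 there were 6 lower and 4 higher members. The median member differed by 0.02 and the median of all genes by 0.06, and 24 members had positive and 21 negative differences. All 4 were also lower in GMP WT than in LSK WT, a comparison that uses the same GMP WT arrays.

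Abca1 read 6.97, 7.23 and 7.12 in GMP WT and 6.30, 5.61 and 6.49 in GMP NcstnKO. Its highest NcstnKO array lay 0.48 below the lowest WT array, and it was 1.97-fold lower (log2 difference -0.98, SE 0.23, limma adjusted p = 0.0482). The call on Abca1 was lost after quantile normalization (-0.93, limma adjusted p = 0.0731) and after centring (-0.94, limma adjusted p = 0.0503). Its other probe sets, near or below background, differed by -0.28 and -0.15. Abcg1 read 10.47, 10.95 and 10.95 in GMP WT and 10.11, 9.83 and 10.16 in GMP NcstnKO. It was 1.69-fold lower (-0.75, SE 0.17, limma adjusted p = 0.0399), with 0.30 between the nearest arrays. Its second probe set differed by -0.65 and was not called in the fit over all probe sets. In that fit the main probe sets of Abcg1 and Abca1 were not called either (limma adjusted p 0.052 and 0.0612).

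Abca3 read 10.78, 10.70 and 10.66 in GMP WT and 9.60, 10.24 and 9.96 in GMP NcstnKO. It was 1.72-fold lower (-0.78, SE 0.15, limma adjusted p = 0.0296), with 0.42 between the groups. Its other probe sets differed by -0.90, which was called, and -0.42, which was not. Abcb4, read by a single probe set, showed the largest difference of the 4, with 9.74, 8.55 and 9.25 in GMP WT and 7.67, 7.42 and 7.97 in GMP NcstnKO. It was 2.81-fold lower (-1.49, SE 0.27, limma adjusted p = 0.0271), and the groups stood 0.57 apart.

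These 4 calls rest on the spread pooled over the 3 groups and on single arrays. With the 6 GMP arrays fitted alone, 6 genes of all were called and 0 members, and with sex as a covariate, from labels or transcripts, 2 genes and 0 members. With sex from transcripts in the fit the differences were -1.08 for Abca1, -0.65 for Abcg1, -0.82 for Abca3 and -1.75 for Abcb4 (limma adjusted p 0.146, 0.183, 0.117 and 0.0863). Between the single female GMP WT array and the 3 GMP NcstnKO arrays, all female, they were -0.84, -0.43, -0.85 and -2.05 (limma adjusted p 0.57, 0.565, 0.509 and 0.231). Leaving out 1 array left 3 members called without LSK array 2, 2 without LSK array 1 or 3 or GMP WT array 1, 1 without GMP WT array 2 or GMP NcstnKO array 1 or 2, and 0 without GMP WT array 3 or GMP NcstnKO array 3. Abca1 lost its call whichever of the 9 arrays was left out (limma adjusted p 0.054 to 0.154). The direction of the 4 differences did not change in any of these fits. Over all these settings the log2 difference ran from -1.15 to -0.47 for Abca1, -0.92 to -0.36 for Abcg1, -1.18 to -0.61 for Abca3 and -2.07 to -1.21 for Abcb4. With replicate number as a block, 1 member was called.

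Other members with a difference of some size were not called. Abcg4 read 7.95, 6.31 and 7.06 in GMP WT and 5.57, 5.63 and 6.46 in GMP NcstnKO (-1.22, SE 0.39, limma adjusted p = 0.1), with overlapping groups. Abca5 read 7.05, 6.76 and 5.11 in GMP NcstnKO, so that 1 array lay below GMP WT and the other two between GMP WT and LSK WT (0.65, limma adjusted p = 0.431). Abcf3 read 9.61, 9.65 and 9.75 in GMP NcstnKO, 0.23 above the highest GMP WT array (0.36, limma adjusted p = 0.0804). Its other probe sets, above background on all 9 arrays, differed by only 0.14 and -0.01. Abcd4 read 8.04 on its highest GMP WT array and 8.62, 8.34 and 8.38 in GMP NcstnKO (0.43, limma adjusted p = 0.0655). The second probe set of Abcd4 differed by 0.46 and was not called. The GMP groups did not overlap for either gene, nor for 14 members in all, 7 in each direction, against 31.9% of all genes.

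Members with large differences between LSK and GMP were also among those not called with genotype. Abcd2 read 9.52, 9.79 and 9.65 in GMP NcstnKO, a difference of 0.02 (SE 0.13) from GMP WT. Abca8b read 5.00, 4.88 and 4.88 (-0.06), and Abcc4 read 10.40, 10.74 and 10.68 (-0.06). These 3 members, all called higher in GMP WT than in LSK WT, overlapped between the GMP groups. Abcg3 read 5.00, 4.91 and 4.15, with 1 array at background (-0.57, limma adjusted p = 0.413), and Abcb1a stayed at background with 3.65, 3.48 and 3.77. Abcc3 read 6.24, 5.75 and 5.10, overlapping GMP WT (0.18, SE 0.25). For the side population pump Abcg2 the GMP groups overlapped at 1 array each, with 11.17, 10.91 and 11.05 in GMP NcstnKO (-0.25, limma adjusted p = 0.229). Abcf1 read 12.60, 12.56 and 12.10 (0.44, limma adjusted p = 0.15) and Abce1 read 12.63, 12.65 and 12.77 (-0.16, limma adjusted p = 0.248). Another probe set of Abcf1 differed by 0.47, and its remaining probe sets by -0.24 to 0.01.

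Markers of other cell types differed between the GMP groups. Of 15 erythroid markers, 8 were lower in GMP NcstnKO and 0 higher, with a median difference of -1.57, and their summed intensity was 44502 to 53189 in LSK WT, 18661 to 34606 in GMP WT and 8189 to 12869 in GMP NcstnKO. Hba-a1 was at background in all groups and Epb42 also in GMP NcstnKO, whereas Klf1 fell from 10.78, 9.63 and 10.45 to 8.31, 7.98 and 8.54. On the 3 GMP WT arrays the erythroid sum was 34606, 18661 and 31190. Of the 4 called members, Abcb4 had the same order and Abca1 the reverse. Abca3 (10.78, 10.70 and 10.66) and Abcg1 (10.47, 10.95 and 10.95) did not have the order of the erythroid sum. By group, the erythroid sum and all 4 members were highest in LSK WT and lowest in GMP NcstnKO. An order over 3 arrays is too short to show whether a member's signal comes from erythroid cells. Like the 4 member calls, the 8 erythroid calls were 0 in the fit of the GMP arrays alone, with sex as a covariate and without GMP WT array 3. Of 12 megakaryocyte markers 3 were lower (median -0.49), of 12 macrophage markers 3 were lower (median -0.33, the C1q genes), and of 13 late neutrophil markers 1 was higher (median 0.54). Of 9 markers of the LSK gate 1 was higher (Thy1 by 1.37, limma adjusted p = 0.0194), and of 10 markers of the GMP gate 0 were called. Mast cell, dendritic cell, lymphocyte and stromal lists had 0 calls. The part of these cells in the ABC differences was not tested.

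RNA integrity was read from the ratio of 3′ to 5′ control probe sets for Actb. Its log2 was 0.748 ± 0.108 in LSK WT, 0.577 ± 0.111 in GMP WT and 0.899 ± 0.14 in GMP NcstnKO (SD, n = 3). The GMP groups did not overlap, with a 2-sided exact permutation p of 0.1, the smallest that 3 against 3 arrays can give. Its part in the lower levels of Abca1, Abcg1, Abca3 and Abcb4 was not tested.

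Partner genes of the ABC proteins were counted on lists for 6 pathways. Over the 101 genes of these lists, 8 were higher and 24 lower in GMP WT than in LSK WT on the deposited scale, against 7.48% and 30.5% of all genes. Quantile normalization turned the split to 24 higher with 14 lower, and centring to 43 higher with 11 lower, so its direction between LSK and GMP depends on the scale. Of 16 genes of sterol uptake, storage and efflux control, 4 were lower in GMP WT than in LSK WT and 0 higher (median -0.27), against 3 lower and 2 higher after quantile normalization and 2 lower and 5 higher after centring. Of the same genes, 2 were lower in GMP NcstnKO than in GMP WT and 0 higher (median 0.11). Rxra, the retinoid receptor that pairs with LXR on Abca1 and Abcg1, was lower in both. It read 9.34, 9.48 and 9.23 in LSK WT, 7.50, 7.75 and 7.54 in GMP WT and 7.28, 6.96 and 6.76 in GMP NcstnKO (-1.75, and -0.60 with limma adjusted p = 0.0482). Its second difference had adjusted p-values of 0.0649 after quantile normalization and 0.051 after centring. Npc1, which releases cholesterol from late endosomes, read 8.77, 8.97 and 8.93 in GMP WT and 8.15, 8.45 and 8.26 in GMP NcstnKO (-0.60, limma adjusted p = 0.0286). Srebf2, the regulator of sterol synthesis, differed by -1.08 from LSK to GMP and by -0.38 with genotype (limma adjusted p = 0.0776). Nr1h3, which encodes LXR alpha, was not called in either comparison on the deposited scale.

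**Figure D4:**
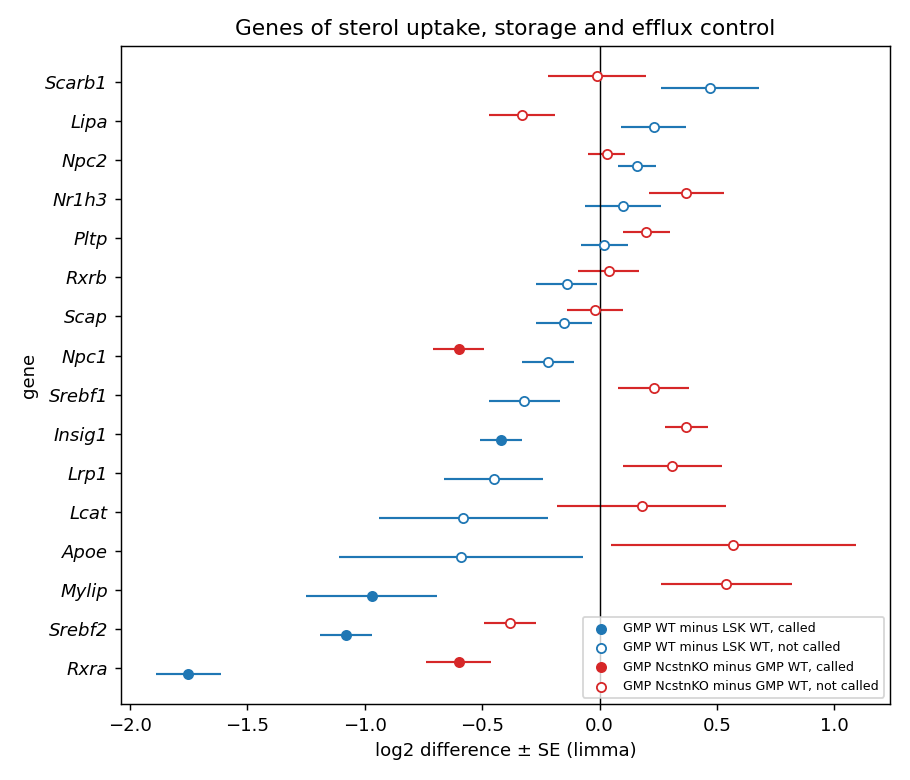
Log2 differences with SE of 16 genes of sterol handling that are not ABC members, for GMP WT minus LSK WT (blue) and GMP NcstnKO minus GMP WT (red); filled points passed the limma threshold. A reader should see that Rxra is called lower in both comparisons, that Npc1 is called in the second, and that the other 14 genes were not called with genotype.

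Of 19 peroxisome genes, which serve the same organelle as Abcd2 and Abcd3, 5 were lower and 0 higher in GMP WT than in LSK WT, with Slc27a2 at -3.08 and Pex11a at -1.19. Under both rescalings 8 were higher and 2 lower. In GMP NcstnKO 3 were higher and 0 lower, Pex3 by 0.74, Pex16 by 0.52 and Crot by 0.48. Of 18 genes of heme and iron-sulphur synthesis, the setting of Abcb6 and Abcb10, 6 were lower and 1 higher in GMP WT (Alas1, the rate-limiting enzyme of heme synthesis, by 2.14) and 0 were called with genotype. After quantile normalization 4 were lower and 1 higher in GMP WT, and after centring 2 were lower and 4 higher. Of 18 genes of glutathione and xenobiotic metabolism, which supply substrates to the ABCC pumps, 5 were lower and 2 higher in GMP WT, against 2 and 5 after quantile normalization and 4 and 7 after centring. Ltc4s, which makes the leukotriene C4 that ABCC1 exports, differed by -1.95 from LSK WT to GMP WT and by 0.44 from GMP WT to GMP NcstnKO, both called.

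Of 16 genes of peptide loading on MHC class I, among them the ABC half-transporter genes Tap1 and Tap2 under their own symbols, 4 were lower and 3 higher in GMP WT than in LSK WT, against 3 and 4 after quantile normalization and 1 and 8 after centring. In GMP NcstnKO 3 were higher and 0 lower, Nlrc5 by 0.80, Tapbpl by 0.48 and Psmb9 by 0.41, while Tap1 had a difference of 0.41 that was not called (limma adjusted p = 0.136). Of 14 translation factors, the setting of Abce1 and the Abcf genes, 2 were higher in GMP WT (Eif3b by 0.35 and Eif3c by 0.26, the latter not called after quantile normalization) and 0 were called with genotype. After quantile normalization 4 and after centring 11 of the 14 were higher in GMP WT. Over the 101 genes of the 6 lists, 7 were higher and 2 lower in GMP NcstnKO, against 2.44% and 3.26% of all genes. Of these 101 genes, 0 were called in either direction with the GMP arrays alone or with sex as a covariate.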

How the data were processed

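Messenger RNA of sorted bone marrow cells was measured on 9 Affymetrix arrays after amplification of 5 ng of RNA, per the labels' protocols. The authors deposited linear intensity values per probe set, made with RMA per the submitters' processing notes (version not given); a joint normalization of the 9 arrays is not given in the sources used here. Group means of the 3 groups were fitted to log2 of these deposited intensities on all 9 arrays in R 4.3.3, using lmFit and eBayes of limma 3.58.1 (2-sided). A call is an adjusted p under 0.05 by the Benjamini-Hochberg method across 18193 genes, and every adjusted p comes from such a fit, except those of other probe sets of a gene, from 1 over 34945 probe sets.

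The members, the pathway and marker lists and the tests were chosen with earlier results of these data known. Values are given on every array for members called in either comparison, the 2 of highest mean level in each subfamily and any other with a log2 difference of at least 1. Of other genes, Ncstn and up to 4 per pathway list with the smallest p are named. A group wholly at background gives a bound: the brighter mean against the background limit. All 45 symbols matched RefSeq's GRCm38.p6 table. Steps were tested on simulated data. Protein features were not analysed here. The files name no genome build, and coordinates are those of the promoter table.

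Same-numbered LSK WT and GMP WT arrays deviated together from their group means (correlations over genes 0.219, 0.238 and 0.291, against -0.171 to -0.076 for unlike numbers). Same-numbered GMP WT and GMP NcstnKO arrays did not (-0.092, 0.004 and 0.022). A pairing of LSK WT and GMP WT by number thus comes from the data. The main fit, which gave the calls in the Results, did not use it. With the replicate block, an alternative fit, 13 members were lower in GMP WT than in LSK WT, against 16. Alternatives were other scalings, all probe sets averaged, a filter on dim genes, 2-group fits, a replicate block, sex as a covariate, limma trend, and each array left out. Restriction to like-sexed arrays and a block on the WT groups alone were chosen after the data were seen.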

Additional observations from a re-analysis of the deposited data

How the results depend on the processing

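Of the 20 members called between LSK WT and GMP WT, 355 values under the 18 planned settings kept direction and call in 288 cases, kept direction without the call in 60 and turned in 7. The 7 were Abca4 (0.14), Abca7 (0.10), Abcc10 (0.01) and Abcf3 (0.01) after quantile normalization, and Abca7 (0.08), Abca12 (0.04) and Abcf3 (0.03) after centring. The count of 4 higher members became 7 after quantile normalization, 14 after centring, 2 without dim genes, and 2 both on arrays with female transcripts only and without the 4 arrays whose transcripts go against their labelled sex. The count of 16 lower members became 8 under both scalings, 3 on female arrays and 8 without those 4. With 1 array left out, 3 to 5 were higher and 11 to 17 lower. Against 6910 genes called, the number was 4174 without dim genes, 1076 on female arrays, 2383 without the 4 arrays, and 5374 to 7102 with 1 array left out. The replicate block gave 6627 genes and 13 lower members, and it changed no other count of this comparison by over 1.5 times.

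For GMP NcstnKO against GMP WT, the 4 called members gave 72 values under planned settings, of which 30 kept the call, 42 kept only the direction and 0 turned. The count of 4 lower became 1 with the replicate block, and 0 with the GMP arrays alone, with sex from labels or from transcripts as a covariate, with a block on the WT groups only, on female arrays and without the 4 arrays. It was 0 to 3 with 1 array left out. The count of 0 higher became 1 after centring and 1 without dim genes, and stayed 0 to 0 with 1 array left out. Of 1037 genes called, the number was 549 with all probe sets averaged, 6 with the GMP arrays alone, 370 with the replicate block, 2 with sex from labels, 2 with sex from transcripts, 2 with a block on the WT groups, 0 on female arrays, 1 without the 4 arrays and 2 to 845 with 1 array left out. Averaging probe sets took Abca1 to -0.47 (limma adjusted p = 0.133). Adjusted p-values over all alternatives ran from 0.0337 to 0.57 for Abca1, 0.0185 to 0.509 for Abca3, 0.016 to 0.231 for Abcb4 and 0.0224 to 0.676 for Abcg1. The cause of these losses was not tested. Of the 9 members at background on all arrays, Abcc9 and Abca12 were called between LSK WT and GMP WT; the other 7 were called in neither comparison on the deposited scale.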
